A study of Mus musculus with 2 samples.

Results

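The 30 genes described here belong to the glucocorticoid system: the receptors and enzymes that sense the hormone and the genes it is best known to induce. They were chosen by name, with earlier results of these data known, and each was read on its brightest probe without a purine repeat. All 30 were found among 37074 gene names on the array, with 54 probes, and all 30 were well above background on both arrays, as were 18502 gene names in all. The arrays held RNA of dorsal root ganglion (DRG) neurons, the sensory cell bodies beside the spinal cord, from C57BL/6 mice. One array was a Dock8-/- (tcr)AND Tg sample with a high level of interleukin-31 per the labels, and the other a Dock8+/- (tcr)AND Tg sample with a low level. Both genotypes therefore carry the AND T cell receptor transgene, and the Dock8+/- mice still lack 1 Dock8 allele. Interleukin-31 is a cytokine that causes itch. The number of animals behind each sample, their age and their sex are not given in the sources used here.

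With 1 array per genotype there is no test, p-value or replicate error between the groups. Each difference is that between 2 arrays, given on the log2 scale as Dock8-/- minus Dock8+/- after each array's 75th percentile was subtracted, and a 2-fold difference serves as a mark of size only. The SD of a difference between single spots of 1 probe was 0.0692 on that scale, which covers spot error and nothing else. The 75th percentile of processed intensity was 145.6 in Dock8-/- and 303.9 in Dock8+/-, so the Dock8-/- array was the dimmer one. Scaled instead to the spike-in transcripts added to each sample, all genes shift by -1.85. That shift uses the median difference of 8 spike-in probes, 0.79, while single probes ran from 0.48 to 1.03. The side of 0 is therefore unsure for genes close to 0 on the spike-in scale. The value on that scale stands beside each named gene that lies above 0 on the first scale and below 0 on the second.

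Glucocorticoids are steroid hormones of the adrenal cortex that are released with the daily rhythm and under stress. They bind the glucocorticoid receptor, which leaves its chaperones, enters the nucleus and binds DNA at paired short sites, inducing genes that restrain inflammation and growth signals and shift cells from glucose to fat as fuel. In sensory ganglia both neurons and the satellite glia around them express the receptor. Several of the genes also answer to other signals: Lcn2, Cebpd and the metallothioneins to inflammatory cytokines and metals, Pdk4, Angptl4 and Plin4 to the fatty acid sensing PPAR receptors, Cdkn1a to p53 and Ddit4 to hypoxia.

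Probes that cross an exon junction are shown first, because they read spliced RNA, and then promoter windows that hold a response element. For Zbtb16 and Lcn2 the junction probe is the dimmer second probe, and for Nfkbia it is the only one. Each of the 3 probes below has its ends on the genome farther apart than its own length, so it matches spliced RNA and not genomic DNA as a whole. The Zbtb16 probe lies at chr9:48473399-48525415 on the minus strand (mm9, per the file headers) and spans an intron of 51957 bases. That of Nfkbia lies at chr12:56590945-56591440 on the minus strand with 436 intron bases, and that of Lcn2 at chr2:32241037-32241281 on the minus strand with 185.
Zbtb16: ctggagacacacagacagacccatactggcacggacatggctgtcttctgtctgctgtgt
Nfkbia: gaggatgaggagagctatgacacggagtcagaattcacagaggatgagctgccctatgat
Lcn2: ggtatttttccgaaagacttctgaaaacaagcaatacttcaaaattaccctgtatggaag

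On these junction probes the log2 difference was 2.72 for Zbtb16, 1.39 for Nfkbia and 1.38 for Lcn2. All 3 were higher in the Dock8-/- sample. On the spike-in scale, where every gene moves by -1.85, Zbtb16 stayed above 0, Nfkbia gave -0.46 and Lcn2 was below 0.

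Promoter windows of RefSeq (GRCm38.p6; 250 bases before to 50 after a transcript start) were matched by symbol for 26 of the 30 genes, with 37 windows. Windows of Nr3c1, Zbtb16, Cebpd and Angptl4 were not used here. The full glucocorticoid response element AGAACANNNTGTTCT, searched on both strands, was found in 3 of all 32851 windows (0.00913%). Of the 37 windows 1 held it, that of an Sgk1 transcript at chr10:21993640-21993939 on the plus strand. The element is shown in capitals, with a further single site upstream of it also in capitals.
Sgk1: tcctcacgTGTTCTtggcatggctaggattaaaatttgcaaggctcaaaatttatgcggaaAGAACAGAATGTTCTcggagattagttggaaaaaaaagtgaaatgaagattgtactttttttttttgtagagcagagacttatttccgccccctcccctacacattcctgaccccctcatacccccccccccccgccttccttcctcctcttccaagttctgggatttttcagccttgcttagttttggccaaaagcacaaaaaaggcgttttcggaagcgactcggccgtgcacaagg

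Sgk1 has 6 windows in the table, and its measured probe does not tell which start the RNA came from. The single site AGAACA alone, which the full element contains at both ends, was found in 7 of the 37 windows (18.9%) and in 19% of all windows. Those 7 windows belong to Sgk1, Fam107a, Sult1a1 and Tsc22d3, and both Fam107a windows among them overlap almost entirely. The PPAR direct repeat AGGTCANAGGTCA was found in 0 of the 37 windows and in 0.0396% of all windows. The windows do not reach distal enhancers.

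The metal response element core, TGCACNC or TGCGCNC on either strand, was found in windows of 12 of the 26 genes. Its share was 35.1% of the 37 windows and 25.7% of all windows. The neighbouring metallothionein genes held 3 matches in the Mt1 window, chr8:94178839-94179138, and 4 in the Mt2 window, chr8:94172368-94172667, both on the plus strand and shown with the matches in capitals.
Mt1: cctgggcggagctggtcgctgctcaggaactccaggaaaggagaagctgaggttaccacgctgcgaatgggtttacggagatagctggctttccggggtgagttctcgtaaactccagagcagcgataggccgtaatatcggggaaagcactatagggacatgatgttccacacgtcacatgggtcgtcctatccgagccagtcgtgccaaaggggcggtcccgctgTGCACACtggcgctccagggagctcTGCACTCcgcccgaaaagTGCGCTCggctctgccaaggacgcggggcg
Mt2: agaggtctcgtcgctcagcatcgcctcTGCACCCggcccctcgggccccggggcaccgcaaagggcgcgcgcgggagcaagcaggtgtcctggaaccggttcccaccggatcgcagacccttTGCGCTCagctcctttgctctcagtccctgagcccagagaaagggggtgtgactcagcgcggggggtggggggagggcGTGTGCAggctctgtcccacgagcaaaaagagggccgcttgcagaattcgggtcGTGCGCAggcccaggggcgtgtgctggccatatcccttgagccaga

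Most of the 30 genes were higher in the Dock8-/- sample. Of the 30, 19 (63.3%) were higher by 2-fold or more, beside 8.75% of all measured genes, and 0 were lower by 2-fold or more, beside 7.07% of all measured genes. Their median log2 difference was 1.19, and that of all measured genes 0.03. At least 3-fold higher were 11 of the 30, beside 2.22% of all measured genes. The members are brighter than the array as a whole, and among the 11489 genes no dimmer on average than the dimmest member 4.95% were higher by 2-fold or more. These shares are a description and were not tested, since the genes were picked with these same values known. For the measured genes of each list below, 8.75% higher and 7.07% lower are likewise the shares over all measured genes. On the spike-in scale the median was -0.67, with -1.83 for all measured genes, and 9 of the 19 stayed above 0 there. That count rests on the spike-in median. Fkbp5, Arrdc2 and Mt1 lay above 0, and Cdkn1a and Lcn2 below, by less than single spike-in probes differed from it.

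The intensities can also be read before any scaling. On the dimmer Dock8-/- array 17 of the 30 genes had the higher processed intensity, beside 7.5% of all measured genes. The 11 genes within 2-fold ranged from -0.85 (Sult1a1) to 0.58 (Arl4d), so none lay between 0.58 and the lowest of the 19, Errfi1 at 1.01.

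**Figure D1:**
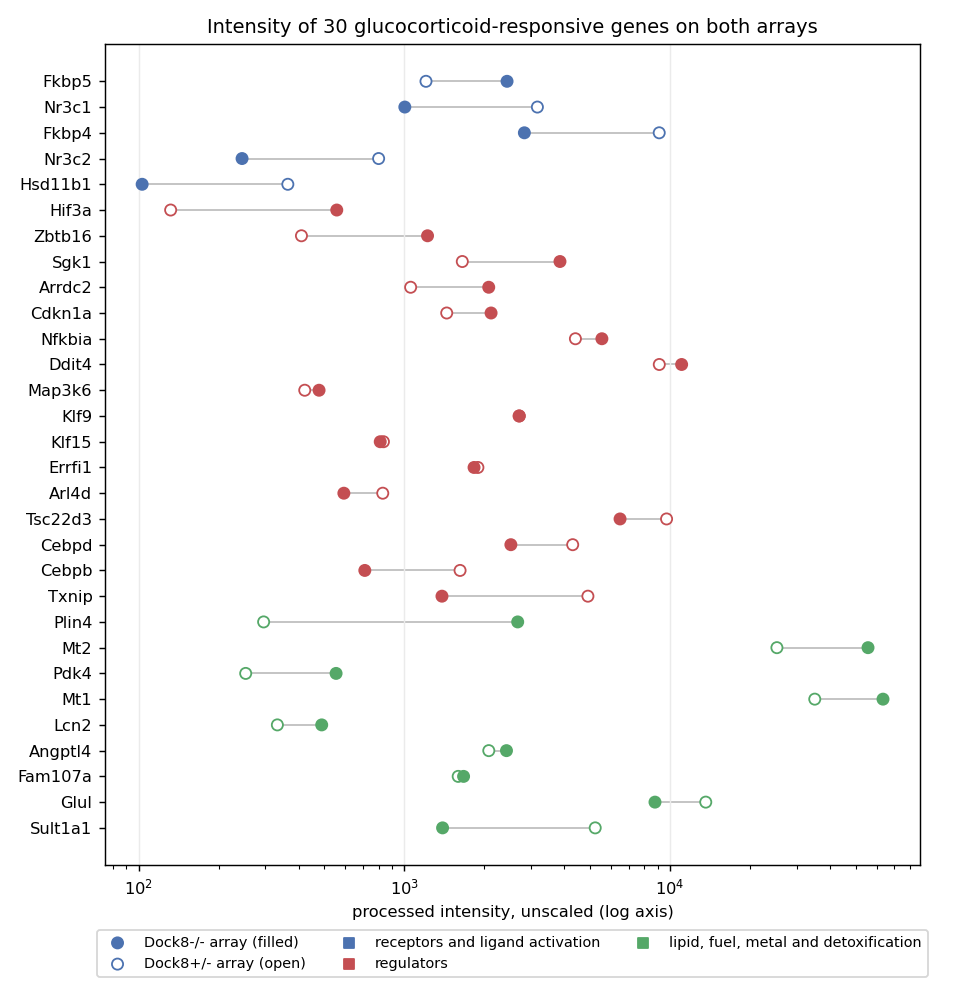
Processed intensity (log axis, no scaling between arrays) of each of the 30 genes on the Dock8-/- array (filled) and the Dock8+/- array (open), coloured by role. For 17 of the 30 the filled point lies to the right, although the 75th percentile was 145.6 in Dock8-/- and 303.9 in Dock8+/-.

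The hormone-sensing genes were not among the higher ones, apart from Fkbp5. Nr3c1, the glucocorticoid receptor (chr18:39588272-39588331, mm9), read 1005 intensity units in Dock8-/- and 3170.1 in Dock8+/-. Its log2 difference was -0.60, and its other probe gave -0.78. Nr3c2, the mineralocorticoid receptor, which binds the same hormones, read 245.2 in Dock8-/- and 800.9 in Dock8+/-, a difference of -0.65, but its dimmer probes gave -0.11 and 0.59. Hsd11b1, the enzyme that regenerates active glucocorticoid inside cells, read 103.2 in Dock8-/- and 364.6 in Dock8+/-, a difference of -0.76 on its only probe. None of the 3 reached 2-fold, and all 3 lay between -2.45 and -2.61 on the spike-in scale.

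The receptor's cochaperones went opposite ways. Fkbp5, which lowers the receptor's affinity for hormone and is itself one of its most used target genes, read 2437 in Dock8-/- and 1207 in Dock8+/-. It was 4.22-fold higher on this probe (chr17:28536060-28536119, mm9). A second Fkbp5 probe gave a log2 difference of 2.71, and its dimmest, with 18.6 in Dock8-/- and 20.2 in Dock8+/-, close to the detection floor, gave 0.94. Fkbp4, its counterpart that favours an active receptor, read 2832 in Dock8-/- and 9112 in Dock8+/-, a difference of -0.62, with other probes at -0.09 and -1.26. In the ungapped alignment with the most equal bases, the brightest probes of the 2 genes had 21 of 60 bases equal, in runs of at most 3. Runs at other offsets were not recorded.

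Among the regulators, 11 of 16 (68.8%) were 2-fold or more up, beside 8.75% of all measured genes, and 0 down. Their median was 1.15. Hif3a, a hypoxia-inducible factor subunit that can restrain the others, read 557.2 in Dock8-/- and 132.1 in Dock8+/-, which is 8.81-fold after scaling and ranked 17th of 18502. Its position is chr7:17616855-17616914 (mm9), and neither array read its second probe well above background. Zbtb16, a zinc finger repressor induced strongly by glucocorticoids in many cells, read 1224 in Dock8-/- and 410.3 in Dock8+/-, or 6.23-fold. The junction probe printed above gave 2.72 on the log2 scale and the brightest probe 2.64, so both readings of Zbtb16 were close.

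Sgk1, the serum and glucocorticoid regulated kinase, whose window holds the full element printed above, read 3856 in Dock8-/- and 1654 in Dock8+/-. It was 4.87-fold higher (chr10:21719390-21719449, mm9). Arrdc2, an alpha-arrestin that acts in the turnover of membrane proteins, was 4.11-fold higher, with 2079 in Dock8-/- and 1057 in Dock8+/-. Its second probe gave 2.13, but shares 49 bases with the first and is no separate reading. Hif3a, Zbtb16, Sgk1 and Arrdc2 all had the higher unscaled intensity in Dock8-/- and were above 0 on the spike-in scale, at 1.29, 0.79, 0.43 and 0.19.

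A second set of regulators also passed 2-fold but lay below 0 on the spike-in scale. The border between the sets rests on the spike-in median, since Arrdc2 and Cdkn1a lie closer to 0 than single spike-in probes do to that median. Cdkn1a, the cell cycle inhibitor, read 2122 in Dock8-/- and 1445 in Dock8+/-, a log2 difference of 1.62 and -0.24 on the spike-in scale. Nfkbia, the inhibitor that holds NF-kB in the cytoplasm, read 5544 in Dock8-/- and 4408 in Dock8+/-, 1.39 and -0.46 on the spike-in scale. Ddit4, an inhibitor of mTORC1 growth signalling, read 11066 in Dock8-/- and 9117 in Dock8+/-, 1.34 and -0.51 on the spike-in scale. For each of these the Dock8-/- array was the brighter one before scaling.

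Map3k6, a kinase of stress signalling, read 477.9 in Dock8-/- and 422.2 in Dock8+/-, a log2 difference of 1.24 and -0.61 on the spike-in scale. Klf9, a glucocorticoid-induced zinc finger factor, read 2711 in Dock8-/- and 2705 in Dock8+/-, 1.06 and -0.79 on the spike-in scale. Klf15, a factor for amino acid and fat use, read 812.1 in Dock8-/- and 834.9 in Dock8+/-, 1.02 and -0.83 on the spike-in scale. Errfi1, a brake on the epidermal growth factor receptor, read 1831 in Dock8-/- and 1893 in Dock8+/-, 1.01 and -0.84 on the spike-in scale. The last 3 thus had nearly equal raw intensities, and their place past 2-fold rests on the scaling. The second Klf9 probe lay just under 2-fold, and the second Errfi1 probe gave 0.79.

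The 5 regulators within 2-fold included the best known one. Tsc22d3, the leucine zipper protein that mediates many anti-inflammatory actions of the hormone, read 6489 in Dock8-/- and 9711 in Dock8+/-. Its log2 difference was 0.48, with 0.21 on its second bright probe and -1.37 on the spike-in scale. Arl4d, a small GTPase, lay at 0.58 (-1.28 on the spike-in scale), and Cebpd, an acute-phase transcription factor, at 0.29 (-1.56 on the spike-in scale). Cebpb, its relative, lay at -0.13, less than 2 SDs of spot error from 0. Txnip, an inhibitor of thioredoxin that glucose also induces, read 1387 in Dock8-/- and 4911 in Dock8+/-, a difference of -0.76, whereas its dimmer probe gave 0.27.

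**Figure D2:**
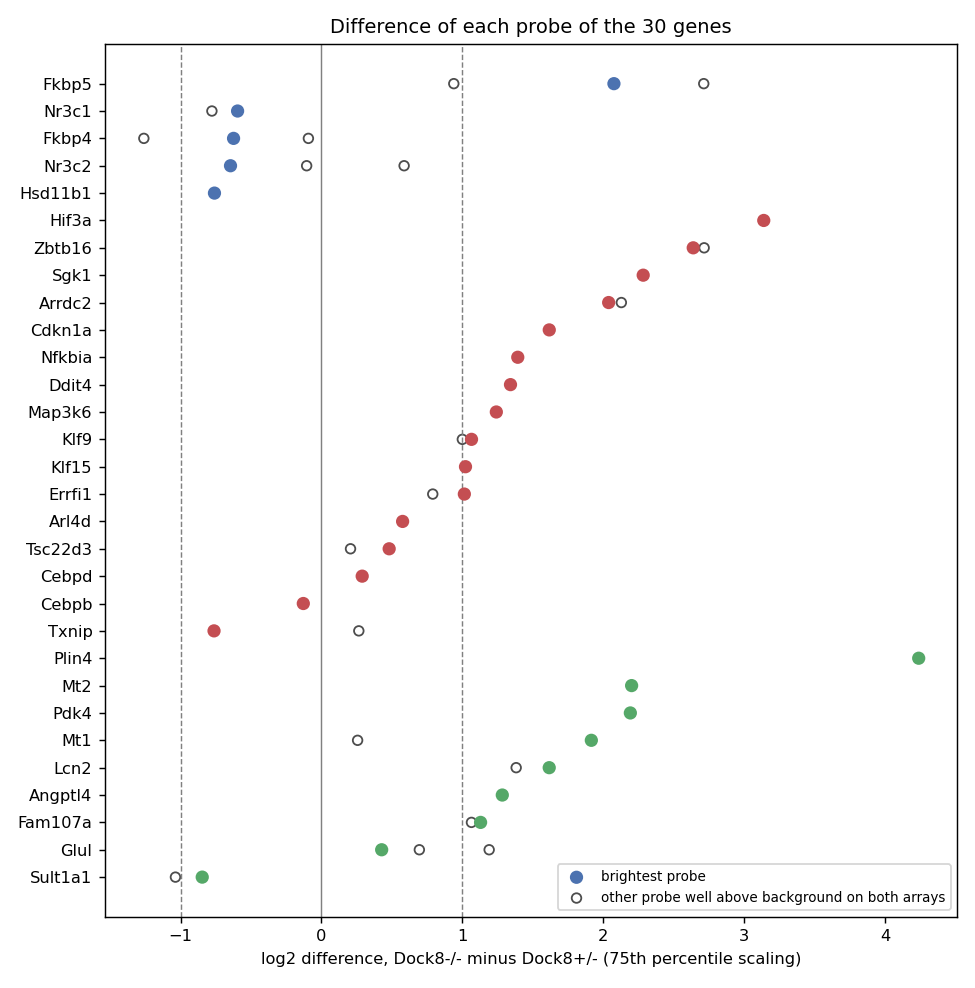
Log2 difference (Dock8-/- minus Dock8+/-, 75th percentile scaling) of every probe of the 30 genes that was well above background on both arrays, with the brightest probe filled and coloured by role, and dashed lines at 2-fold. Probes of Zbtb16 and Klf9 lie together, as do those of Arrdc2, which share 49 bases. Those of Fkbp5 and Mt1 spread, and those of Nr3c2 and Txnip lie on both sides of 0. On the spike-in scale every point moves by -1.85.

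Of 15 genes with more than 1 such probe, 13 had all of them on the same side of 0, Nr3c2 and Txnip being the exceptions. The 13 include Arrdc2, whose probes share 49 bases and so could hardly differ. The other 15 genes rest on 1 probe each, Plin4, Hif3a, Sgk1, Pdk4 and Mt2 among them. Those values have no second reading.

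The metabolic and protective genes held the largest single difference. Of the 9, 7 (77.8%) were past 2-fold upward, beside 8.75% of all measured genes, and 0 downward, with a median of 1.62. Plin4, a coat protein of lipid droplets, read 2673 in Dock8-/- and 295.6 in Dock8+/-. It was 18.9-fold higher and ranked 3rd of the 18502 measured genes (chr17:56240055-56240114, mm9). Its log2 difference was 4.24, 3.77 after normexp background correction and 2.39 on the spike-in scale. Pdk4, the kinase that shuts off pyruvate dehydrogenase and so spares glucose, read 553.9 in Dock8-/- and 253.1 in Dock8+/-, or 4.57-fold. Angptl4, an inhibitor of lipoprotein lipase, read 2425 in Dock8-/- and 2080.5 in Dock8+/-, a log2 difference of 1.28 and -0.57 on the spike-in scale.

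Plin4, Pdk4 and Angptl4 are also genes of fat cells and of the PPAR receptors. Of 15 measured genes on a list of PPAR receptors and targets, 0 were 2-fold or more up and 0 down, with a median of -0.17. The remaining gene of that list, Cd36, a fatty acid transporter, read 3.80 in Dock8-/- (not well above background) and 93.4 in Dock8+/-, at least 2.78-fold lower. Of 12 adipocyte markers, 8 were measured, with 1 past 2-fold upward and 4 downward and a median of -0.51. Of these 8, 4 lay above 0 and 4 below. The 1 upward was Lipe, at 2.99-fold, which is below 0 on the spike-in scale. Adipoq, the adipocyte hormone adiponectin, read 3.91 in Dock8-/- (not well above background) and 104.5 in Dock8+/-, at least 3.10-fold lower. Plin1, the adipocyte droplet coat, was also not well above background in Dock8-/-, at least 2.85-fold lower. The adipocyte list summed to 805.1 intensity units in Dock8-/- and 3664 in Dock8+/-. In units of each array's 75th percentile the sums were 5.53 in Dock8-/- and 12.1 in Dock8+/-. A drop in a marker can mean fewer such cells or less RNA per cell, which cannot be told apart in these samples. Without the 3 genes, 16 of the other 27 were higher by 2-fold or more.

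The metallothioneins, small proteins that bind zinc and copper, were the brightest of the 30. Mt2 read 55650.2 in Dock8-/- and 25268.7 in Dock8+/-, and was 4.60-fold higher. Mt1 read 63368 in Dock8-/- and 35078 in Dock8+/-, and was 3.77-fold higher. Neither spot was saturated, and their log2 differences of 2.20 and 1.92 became 0.35 and 0.06 on the spike-in scale. A second Mt1 probe, for the predicted transcript XM_006530752, read 216.5 in Dock8-/- and 378.4 in Dock8+/- and gave 0.26. Of the other 174 genes at least as bright as Mt2, 5.17% were higher by 2-fold or more, with a median of 0.17.

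The Mt1 and Mt2 probes have 24 of 50 bases equal in the ungapped alignment with the most equal bases, in runs of at most 5 there. Of 6 measured genes on a list of other metallothioneins and metal response genes, 0 were 2-fold or more up and 1 down, the zinc importer gene Slc39a10, at 2.97-fold on its brightest probe. Its other probe gave -0.21. Mt3, the brain metallothionein, named after its value was seen, lay at 0.20 and Mtf1, the metal sensor, also named afterwards, at 0.14, with its other probes up to 1.11. Both are below 0 on the spike-in scale.

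Lcn2, a protein that binds bacterial iron carriers and is made by neutrophils and injured tissue, read 489.0 in Dock8-/- and 333.0 in Dock8+/-. Its log2 difference was 1.62, 1.38 on the junction probe printed above, and -0.24 on the spike-in scale. Of 12 neutrophil markers 9 were measured, 2 of them higher by 2-fold or more and 0 lower by 2-fold or more, with a median of 0.29. Ly6g, a surface marker of neutrophils, and Mmp9 were well above background in Dock8+/- alone, at least 4.07-fold and 2.15-fold lower, which makes 2 higher and 2 lower. That list summed to 6383 in Dock8-/- and 11017 in Dock8+/-, with Cxcr2 at background in both. In units of each array's 75th percentile the sums were 43.8 in Dock8-/- and 36.2 in Dock8+/-. The part of these cells in the Lcn2 value was not tested.

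Fam107a, an actin-binding stress protein of astrocytes and neurons, read 1672 in Dock8-/- and 1596 in Dock8+/-, a log2 difference of 1.13 and -0.72 on the spike-in scale. Its second probe gave 1.06. Glul, glutamine synthetase, the glial enzyme that turns glutamate into glutamine, read 8784 in Dock8-/- and 13639 in Dock8+/-. Its difference was 0.43 on the brightest probe, with 0.69 and 1.19 on the others and -1.42 on the spike-in scale. Sult1a1, a sulfotransferase of phenols and catecholamines, went the other way, with 1394 in Dock8-/- and 5232 in Dock8+/-, a difference of -0.85 and -1.04 on its second probe.

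Among the glial lists, astrocyte markers were the most often higher. All 10 astrocyte and spinal cord markers were measured, 9 above 0 and 1 below, from -0.17 to 3.07. By 2-fold or more 6 were up and 0 down, with a median of 1.35. Gfap, the glial filament protein, had the largest difference of the list. It was 8.42-fold higher, with 4570.5 in Dock8-/- and 1133 in Dock8+/-. That list summed to 43523 in Dock8-/- and 49286 in Dock8+/-, or 299.0 in Dock8-/- and 162.2 in Dock8+/- in units of each array's 75th percentile. Of 10 satellite glia markers 4 were 2-fold or more up and 1 down, Fabp7 at -2.21, with a median of 0.73. Of 10 Schwann cell markers 1 was up and 2 were down by that size. Above 0 lay 7 of the satellite glia and 4 of the Schwann cell markers. On the spike-in scale the medians were -0.50 for the astrocyte and -1.12 for the satellite glia list. Their part in the differences of Fam107a, Glul, the metallothioneins and the other genes was not tested.

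Neuronal genes lay near 0. All 20 neuronal and sensory neuron markers were well above background on both arrays, and their median was 0.05, with 1 higher by 2-fold or more and 1 lower. They summed to 254065 in Dock8-/- and 549003 in Dock8+/-, or 1745 in Dock8-/- and 1806 in Dock8+/- in units of each array's 75th percentile. Of the 12 skeletal muscle markers 6 were measured, with a median of -3.81, and of the 12 fibroblast markers 11 were, with a median of -2.26. Macrophage markers had a median of -1.43 over 12 genes, endothelial markers -0.31 over 10 and Schwann cell markers -0.13 over 10.

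**Figure D3:**
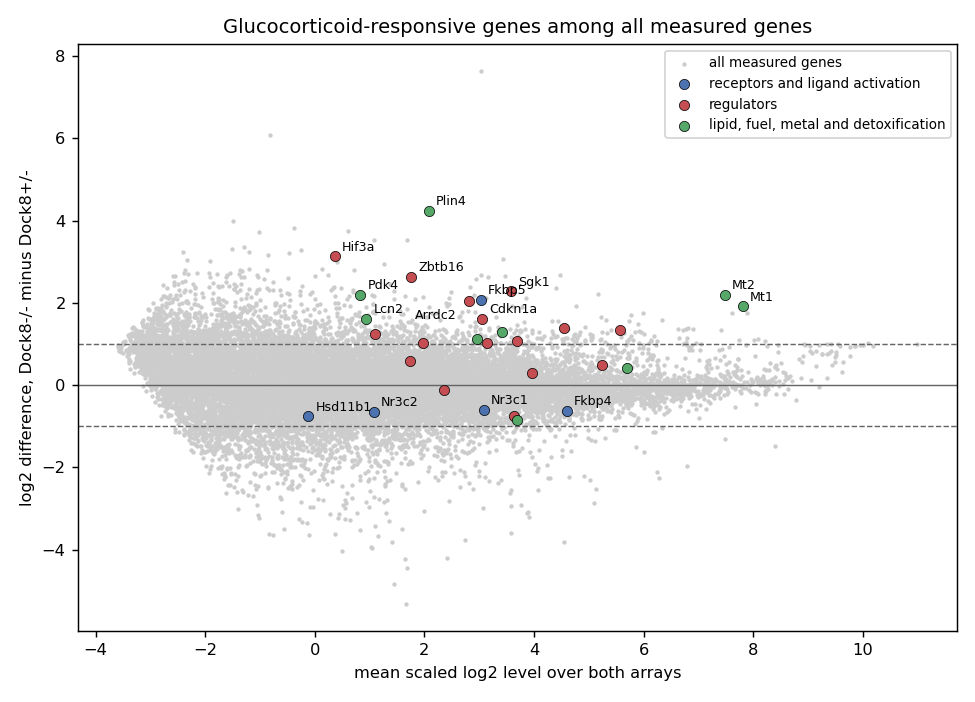
Log2 difference (Dock8-/- minus Dock8+/-) against the mean scaled log2 level over both arrays, for all 18502 measured genes (grey) and the 30 genes coloured by role, with dashed lines at 2-fold. Plin4, Hif3a and Zbtb16 have the highest differences of the 30 and Mt1 and Mt2 the highest levels, whereas on the spike-in scale all points move down by 1.85.

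A wider list of 30 genes often reported as glucocorticoid induced, written with the earlier results known, gave a smaller share. Of its 28 measured genes, 6 (21.4%) were higher by 2-fold or more and 3 lower by 2-fold or more, with a median of 0.40. Il1r2, the decoy receptor for interleukin-1, was 6.56-fold higher, with 127.4 in Dock8-/- and 40.5 in Dock8+/-. Rhob, a small GTPase, was 2.91-fold and Slc10a6, a carrier of steroid sulfates, 2.70-fold higher. On the spike-in scale Il1r2 lay at 0.86, Rhob at -0.31 and Slc10a6 at -0.42.

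Of 3 widely used markers of the hormone in that list, none was higher by 2-fold or more. Anxa1, annexin A1, was 4.93-fold lower, with 312.2 in Dock8-/- and 3216 in Dock8+/-. Dusp1, a phosphatase that shuts off MAP kinases and also an immediate early gene, lay at -0.52, with 1161 in Dock8-/- and 3465 in Dock8+/-. Per1, a clock gene with a strong response, had 0.74 from its brightest probe, which is -1.11 on the spike-in scale, while its other probe gave 0.03. Anxa1 is also made by macrophages and fibroblasts, whose lists had medians of -1.43 and -2.26 here, and their part in its value was not tested.

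Receptor cofactors differed little on their brightest probes. Of 18 measured chaperones, coregulators and hormone enzymes or exporters, 0 were 2-fold or more up and 1 (5.56%) down, with a median of 0.07. Of all measured genes 8.75% were up and 7.07% down by that size. Over all probes of the list well above background on both arrays, values ran from -1.18 to 2.25. That 1 was Abcb1a, the drug and steroid exporter of the blood barrier, at 2.09-fold lower, with 216.8 in Dock8-/- and 946.1 in Dock8+/-. Hsd11b2, which inactivates the hormone, was well above background in neither sample.

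The inflammatory genes that the hormone represses lay on both sides of 0. Of 15 listed, 8 were measured, 4 above 0 and 4 below, with a median of -0.17. By 2-fold or more 1 (12.5%) was higher and 2 (25%) lower, beside 8.75% and 7.07% of all measured genes. A further 3, read well above background in Dock8+/- alone, were lower by bounds of at least 2.28-fold for the cytokine gene Il1b, 2.27-fold for Ptgs2, the inducible cyclooxygenase, and 2.15-fold for the protease gene Mmp9. With these bounds 1 was higher and 5 lower. The share of probes well above background was 50.7% in Dock8-/- and 56.9% in Dock8+/-, so such bounds fall more readily on the lower side. Pla2g4a, a phospholipase that starts prostaglandin synthesis, was 5.39-fold lower and Ccl2, a monocyte chemokine, 3.95-fold lower. Cxcl10, an interferon-induced chemokine, was 2.08-fold higher, with 200.6 in Dock8-/- and 201.1 in Dock8+/-, near equal before scaling and -0.79 on the spike-in scale. The macrophage list had a median of -1.43, and its part in these values was not tested.

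**Figure D4:**
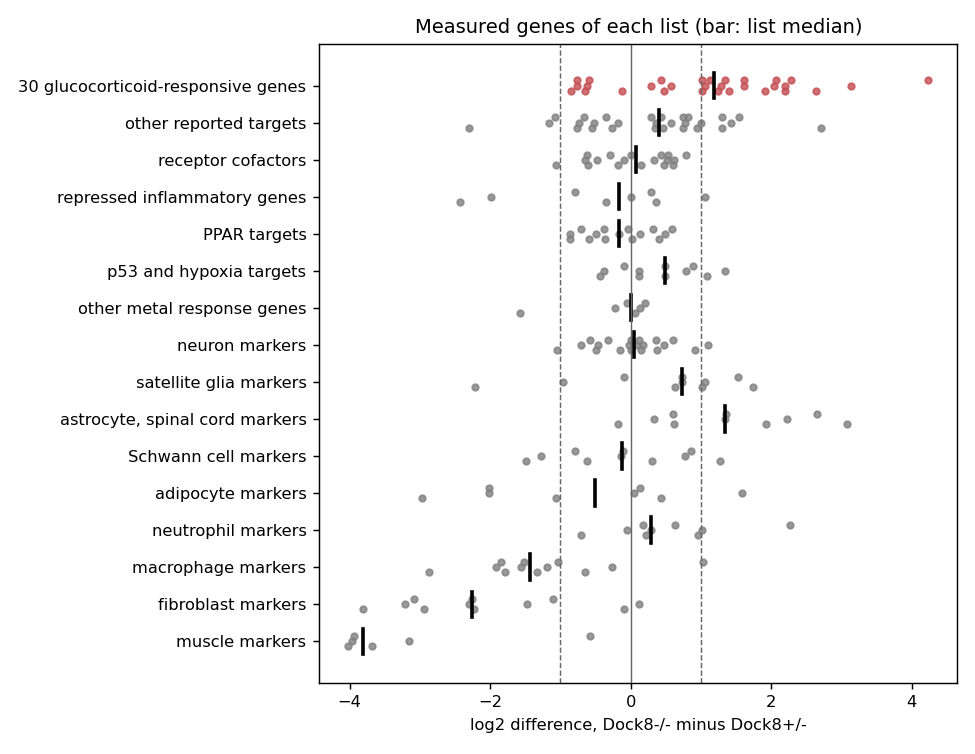
Log2 difference (Dock8-/- minus Dock8+/-, 75th percentile scaling) of the measured genes of the 30 and of most other lists, 1 point per gene, with the list median as a bar and dashed lines at 2-fold. The 30 genes have a median of 1.19, astrocyte and spinal cord markers 1.35, neuron markers 0.05 and muscle markers -3.81, and the spike-in scale moves all of them by -1.85.

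Targets of p53 and hypoxia, the other signals for Cdkn1a and Ddit4, lay on both sides. Of 11 measured p53 and hypoxia targets, 2 (18.2%) were 2-fold or more up and 0 down, with a median of 0.49. Of all measured genes 8.75% were up and 7.07% down by that size. Egln3, a hypoxia-induced hydroxylase outside that count, read 13.4 in Dock8-/- (not well above background) and 192.1 in Dock8+/-, at least 5.71-fold lower. Trp53inp1, a p53 target, was 2.53-fold higher, with 457.8 in Dock8-/- and 378.1 in Dock8+/-, and Hif1a, the oxygen-regulated subunit, 2.13-fold higher. On the spike-in scale their log2 differences were -0.51 for Trp53inp1 and -0.76 for Hif1a. No difference between these lists and the 30 was tested.

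**Figure D5:**
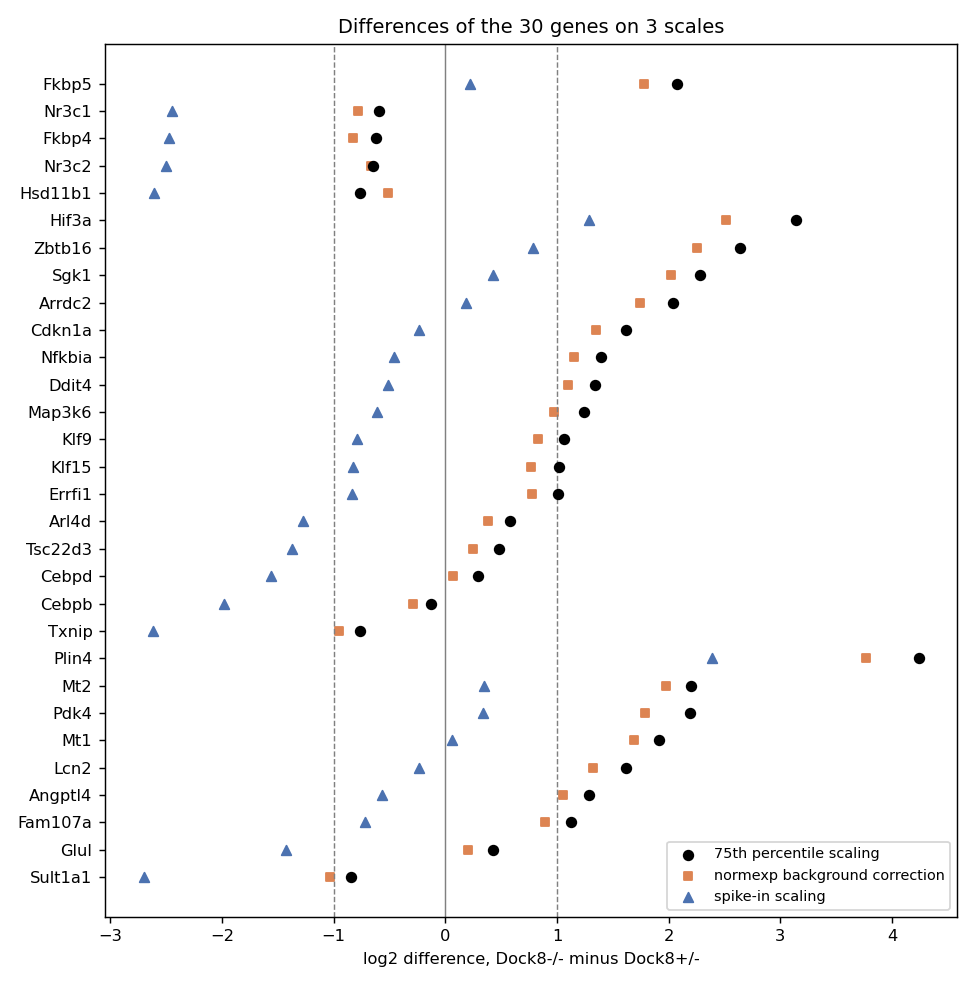
Log2 difference (Dock8-/- minus Dock8+/-) of the 30 genes with 75th percentile scaling (circles), normexp background correction (squares) and spike-in scaling (triangles), with dashed lines at 2-fold. Spike-in scaling moves every gene by -1.85, which leaves Plin4 and Hif3a past 2-fold and 9 of the 19 above 0, while normexp leaves 14 of the 19 past 2-fold.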

How the data were processed

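Total RNA was isolated with Isogen and labelled with Cy3 after low-input amplification, per the labels' protocols. The deposited scanner files hold linear intensity values that the authors extracted using Agilent Feature Extraction (10.7.1.1 per the file headers, 9.5.1.1 per the submitters' processing notes), detrended within each array and not normalised between arrays. The deposited value table holds intensity found here to be quantile normalised (98.9% of sorted values equal with tolerance 0, a median of 27.9 in each column), linear, uncentred and in the direction of intensity. It served as an alternative.

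Here log2 processed intensity was averaged per probe over unflagged spots, then set relative to the array's 75th percentile (56605 non-control probes), with Python 3.11.15 and limma 3.58.1. No non-control spot was saturated (0 on each array), the share of probes well above background was 50.7% in Dock8-/- and 56.9% in Dock8+/-, and the number of arrays limits the precision. Genes were taken by the files' names. Of 54 member probes 46 had an accession in the RefSeq table of GRCm38.p6, and all 46 carried the same symbol there. A gene took its brightest probe with no run of 4 or more GA or GAA units (or their complements), and 0 of the 54 probes held one. A gene is called measured if both arrays read that probe well above background. Where only 1 array read a gene, the fold is a lower bound against the higher of the dim value and the lowest signal well above background. Spike-in scaling used the median of 8 spike-in probes.

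The members and all lists were chosen with earlier results of these data known. All 30 members are named. Of each other list of the pathway up to 4 genes at least 2-fold apart are named, with Per1, Dusp1 and Anxa1 in any case, and of marker lists those that define the cell type. Genes given by a bound, and Mt3, Mtf1, Fabp7 and Lipe, were named after their values were seen. The counting was checked on a simulated array, made from the Dock8+/- array with a constant shift, planted differences and spot error. That checks the arithmetic and cannot show error between samples. Alternatives were other scalings, normexp with an offset of 50, loess with a span of 0.3, the value table, other choices of probe, filter, detection flag and threshold. Exons of mm9 were not used here.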

Additional observations from a re-analysis of the deposited data

How the results depend on the processing

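Leaving out a replicate could not be done with a single array per genotype. No paired analysis was possible because neither genotype had a second array to pair. Of the 19 genes higher by 2-fold or more, the same 19 remained under quantile normalisation, loess and the deposited value table. The shares of all genes there were 7.39%, 6.57% and 7.48%. The 19 also remained under both other percentile or median scalings, which move every gene by the same small amount. Beside them stood 9.31% of all genes with the other percentile and 8.7% with the median. Keeping repeat probes, the other filters on dim probes and the other detection flag could not change these 19. Their brightest probes hold no repeat and were well above background on both arrays, so their values stayed identical. Those settings bear only on the share of all genes higher by 2-fold or more. It was 8.75% in the main setting, 9.1% with repeat probes, 14.5% without a filter and 13.7% with the other flag. With the mean of a gene's probes 18 remained (Errfi1 left), beside 9.2% of all genes. With the dimmest probe 15 remained, with Glul added to make 16, beside 12.6% of all genes. Under normexp 14 remained, without Klf9, Klf15, Errfi1, Map3k6 and Fam107a, beside 3.4% of all genes. The median of 1.19 was 0.94 under normexp, 1.09 with the mean of probes and 1.04 with the dimmest probe. The count of 0 lower by 2-fold or more became 1 under normexp (beside 4.68% of all genes) and 2 with the dimmest probe (beside 8.22%). With a 1.5-fold threshold it became 6 (beside 16.9%). At 1.5-fold 19 were higher, beside 20.6%, and at 3-fold 11, beside 2.22%.

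Spike-in scaling moves all genes by -1.85, since the spike-in spots were brighter on the Dock8-/- array by a median of 0.79 and the 75th percentile lower by 1.06. Single spike-in probes ran from 0.48 to 1.03. It gave 2 genes higher by 2-fold or more (beside 0.119% of all genes), 11 lower (beside 87.7%) and a median of -0.67. It turned Klf9 to -0.79, Klf15 to -0.83, Nfkbia to -0.46, Errfi1 to -0.84, Map3k6 to -0.61, Cdkn1a to -0.24, Ddit4 to -0.51, Angptl4 to -0.57, Lcn2 to -0.24 and Fam107a to -0.72. Relative to the median of all genes, the median of the 30 was 1.16 higher on both scales. Which of the scales reflects RNA per cell was not tested. Signal over background limits the dim probes, such as the junction probe of Zbtb16, with 73.7 in Dock8-/- and 23.4 in Dock8+/-.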

Other observations

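Genes of the stress axis itself were mostly not read in these ganglia. Of 15 listed peptides, receptors and steroid enzymes, 5 were measured, and 8 were at background on both arrays, Crh, the hypothalamic releasing hormone, Mc2r, the corticotropin receptor, and the steroid enzyme genes Cyp11a1 and Cyp11b1 among them. Avpr1a, a vasopressin receptor, was 2.05-fold higher, with 148.7 in Dock8-/- and 151.1 in Dock8+/-, near equal before scaling and -0.81 on the spike-in scale. Ucn, the peptide urocortin, singled out after its value was seen, was well above background in Dock8-/- alone, with 56.4 in Dock8-/- and 13.8 in Dock8+/-, at least 6.79-fold higher.

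Some probes for other transcripts were dim. A Cdkn1a probe for NM_001111099 read 3.74 in Dock8-/- (not well above background) and 21.6 in Dock8+/-, whereas the probe for NM_007669 was 3.07-fold higher. A Tsc22d3 probe for ENSMUST00000152048 and an Sgk1 probe for ENSMUST00000143094 were at background on both arrays.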
